A study of Mus musculus with 2 samples.

Results

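Yolk sac endothelial cells were taken here as the cells of an E8.75 mouse yolk sac single-cell RNA-seq data set that pass a marker gate, 111 of 1740 cells. A cell entered the gate when it had at least 500 genes, at most 10% mitochondrial UMIs (unique molecular identifiers, counted transcript molecules) and at least 2 UMIs of Cdh5. Cdh5, Ctla2a and Plvap together had to make up at least 0.04% of its gene UMIs. The endoderm transcripts Ttr, Apob and Apom together had to stay under 0.3%, and 7 globin transcripts under 3%. The cells were thus chosen by their measured values of these 13 genes, which are given as a description and without a test.

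The study dissociated yolk sacs, marked the cells with CellPlex oligonucleotide tags and ran them as a pool on a 10x droplet system; transcripts and tags were sequenced as separate libraries. It set ciliated yolk sac cell types against the unciliated visceral endoderm lineage. The cells came as 3 tagged samples, all with the genotype Ttr-Cre/+; R26lsl-rtTA-EGFP/+, so there was no second genotype or treatment to compare. In this line the Ttr promoter drives Cre in the visceral endoderm, and Cre removes a stop ahead of rtTA and EGFP at the Rosa26 locus. Cre had 0 UMIs in the gate and 5 UMIs in all other cells, 3 in cells at the endoderm limit and 2 in cells at the globin limit. With so few UMIs in the far larger group, the 0 says nothing about Cre in the gate.

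The submitters describe 3 yolk sacs from 3 embryos. Every gate cell carried the leading tag of its own tagged sample, and the 3 matrices shared 0 cell barcodes. The leading tag was read from the same matrix, and the matrices divide a single pool, so neither value tests the assignment of cells. By sex-linked transcripts, the gate held cells with Xist and cells with Y-linked UMIs in each tagged sample. Their numbers were 12 and 13, 16 and 5, and 12 and 17 cells. How many embryos lie behind a tag is therefore not settled, and all tests below measure only the spread between these 3 tagged samples.

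Yolk sac endothelium forms in the extraembryonic mesoderm next to the visceral endoderm, as a plexus around the blood islands that is later remodelled into arteries and veins. VEGF receptors drive its growth, Notch signalling and ephrin-B2 mark arterial fate, and EphB4 and COUP-TFII (Nr2f2) mark venous fate. Some yolk sac endothelial cells are haemogenic: they switch on Runx1 and give rise to blood cells. Lyve1, a hyaluronan receptor best known from lymphatic vessels, and the scavenger receptors Stab1 and Stab2 are also found on yolk sac endothelium at this age, without lymphatic vessels being present.

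The gate held 35, 37 and 39 cells of tagged samples 1, 2 and 3, which was 7.90%, 6.03% and 5.71% of their passing cells (mean 6.55% ± 1.18, SD, n = 3). The exact binomial 95% intervals, which cover counting error only, were 5.56% to 10.8%, 4.28% to 8.21% and 4.09% to 7.72%, and they overlapped. Gate cells had a median of 36299 UMIs and 5393 genes, against 48103 UMIs and 5592 genes in the 1629 other cells. Summed over cells, the gate held 1682737, 1440113 and 1232634 UMIs in the 3 tagged samples. Of the other cells, 567 reached the endoderm limit only, 648 the globin limit only and 20 both, and 394 lay under both limits. Scrublet called 95 of the passing cells doublets, 4 of them in the gate. They were kept, as the gate has no doublet step.

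Few gate cells sat at the Cdh5 limit, but more lay near the limit on the summed share. Gate cells had 2 to 51 Cdh5 UMIs with a median of 10, and a Cdh5, Ctla2a and Plvap share of 0.0418% to 0.341% with a median of 0.118%. Only 4 gate cells sat at exactly 2 Cdh5 UMIs, and 24 had a share within 2 times its limit. Just outside, 23 cells under both limits had 1 Cdh5 UMI, and 10 had enough Cdh5 but a share of at most 0.0382% (median 0.0154%). A further 7 cells with enough Cdh5 were kept out by the endoderm limit, 11 by the globin limit and 1 by both. Among the 394 other cells under both limits, Cdh5 reached 9 UMIs and the summed share reached 0.0959%.

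Genes that the gate did not use describe the label further but do not test it. Genes expressed together with the gate genes are high by construction, and Kdr and Lyve1 were given beforehand as markers of these cells. Both were far above their level elsewhere. Kdr (VEGF receptor 2; chromosome 5, 75932827 to 75978458, minus strand, GRCm38), the receptor through which VEGF-A drives endothelial growth, stood at 513, 426 and 394 CPM (a gene's UMIs per 1000000 UMIs of all genes) in tagged samples 1, 2 and 3. In the 394 other cells under both limits it stood at 10.7, 14.2 and 12.4 CPM. Lyve1 (chromosome 7, 110850607 to 110863239, minus strand, GRCm38) stood at 406, 1397 and 1197 CPM in the gate against 3.52, 7.42 and 3.47 CPM. The groups did not overlap for either gene, and Lyve1 was the gene with the wide spread inside the gate, lowest in tagged sample 1.

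Each gate cell's detection was also read after thinning to 10000 UMIs, which left out 11 shallower gate cells and kept 100. The share is the expected one over all draws. Kdr had a UMI in 95.5% of thinned gate cells, Lyve1 in 85.9% and Pecam1, an adhesion molecule of endothelial contacts, in 75.8%. Unthinned, these shares were 98.2%, 91.9% and 97.3%. In thinned cells at the endoderm limit the same genes were found in 1.57%, 1.91% and 1.56%, and in thinned cells at the globin limit in 2.64%, 2.72% and 5.82%. These 2 groups are deeper than the gate before thinning, with medians of 56338 and 48034 UMIs.

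**Figure D1:**
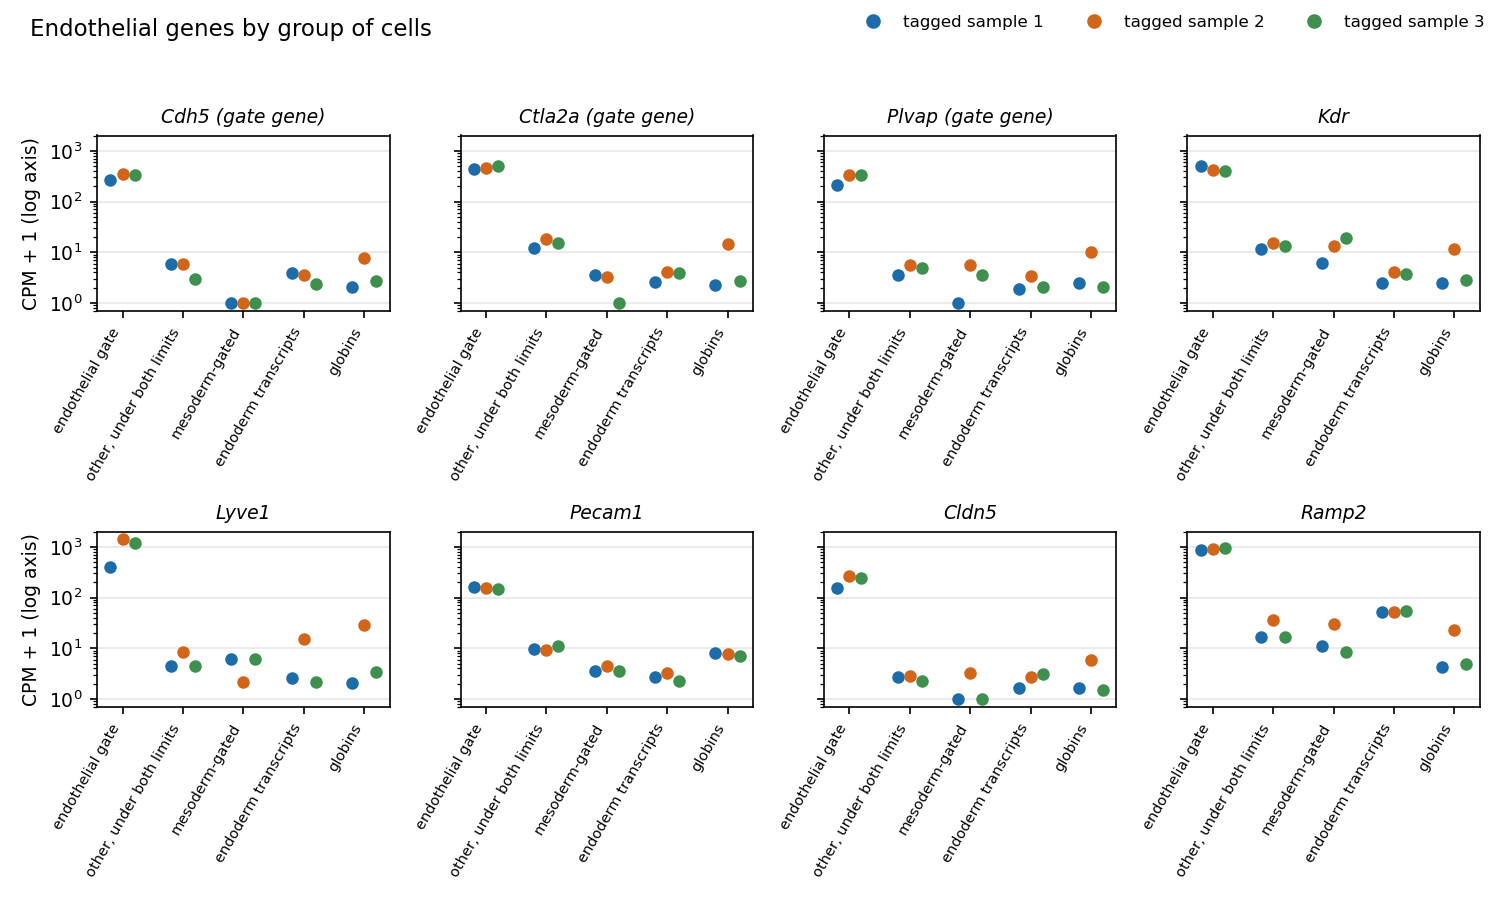
CPM of 3 gate genes and 5 endothelial genes outside the gate rule (CPM + 1 on a log axis), for the endothelial gate and 4 groups of other cells; each point is the sum over the cells of 1 tagged sample. Gate cells lie above every other group for the 5 genes outside the rule, while the 3 gate genes were used to choose the cells. Globin-limit cells carry more of the transcripts shown in tagged sample 2 than in the others (Lyve1 27.8 CPM against 1.06 and 2.48).

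For the comparisons, UMIs were summed per tagged sample and group and tested with edgeR's quasi-likelihood test with Benjamini-Hochberg adjustment, calling genes under an adjusted p of 0.05. The gate chooses cells by expression, so genes expressed together with the gate genes differ by construction, and the calls describe the gate's profile. Against all other cells, 2663 of 11703 tested genes were higher (22.8%) and 2781 lower (23.8%). Against the other cells under both limits, 1784 of 9977 genes were higher (17.9%) and 1307 lower (13.1%). With library size scaling the second comparison had 1582 higher and 1762 lower genes. It had 1891 calls in all without tagged sample 3, and 2147 without tagged sample 2. The first comparison is mainly one with endoderm and erythroid cells. The second holds both groups to the same endoderm and globin limits and is the one quoted unless stated. Since the rule used these contrasts, nothing is read from a list's share of calls against those of all genes. A gene could also enter a test through its counts in a single group, so list counts and medians hold for the tested genes only.

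The endothelial core was the most uniform part of the profile. Of 38 listed genes 37 were tested and 36 were higher, with a median log2 difference of 5.25 against -0.04 over all genes tested. Cldn5, the tight junction protein of endothelium, stood at 150, 268 and 247 CPM in the gate and at 1.30 to 1.80 CPM in the other cells under both limits (log2 difference 7.16 ± 0.29, SE). Icam2, an adhesion molecule for leukocytes, stood at 137, 232 and 243 CPM (6.97 ± 0.34). Pecam1 was nearly level across tagged samples at 164, 150 and 149 CPM (4.17 ± 0.14, adjusted p = 1.25e-07 in edgeR's quasi-likelihood test).

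Ramp2, the accessory protein of the adrenomedullin receptor, was the most abundant gene of this list at 849, 901 and 948 CPM (5.42 ± 0.27). Its partner receptor Calcrl was higher too (5.85 ± 0.34). The transcription factors Erg (39.2, 41.0 and 30.0 CPM; 6.15 ± 0.29) and Sox18 (35.7, 27.8 and 22.7 CPM; 5.25 ± 0.32) were at most at 1 CPM in the other cells under both limits. Egfl7, an endothelial secreted factor that also hosts a microRNA, differed less (2.19 ± 0.11), and the comparator held 74.0 to 93.4 CPM of it. Gpihbp1, which anchors lipoprotein lipase to capillaries, had 42 UMIs in the gate and 0 in the comparator, and was at least 50.1-fold higher with 3 counts over the group as the floor. Tal1, a factor shared by blood and endothelium, was the tested core gene that was not called (0.18 ± 0.20), though it was called higher with stricter endoderm and globin limits (1.23, adjusted p = 0.000480 in edgeR's quasi-likelihood test). Its level was 51.1, 47.9 and 47.9 CPM in the gate and 94.2, 113 and 106 CPM in globin-limit cells.

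All 11 receptors for VEGF, angiopoietin and TGF-beta family ligands were tested, and 10 were higher (median 3.99). Flt1, a VEGF receptor that holds ligand back from Kdr, stood at 245, 269 and 234 CPM (4.09 ± 0.23). Tek, the receptor for angiopoietins, stood at 112, 128 and 119 CPM (2.43 ± 0.21), and its orphan relative Tie1 at 42.8, 53.5 and 47.9 CPM (4.83 ± 0.27). Eng, a co-receptor for BMP9 that is mutated in vascular malformations, stood at 52.9, 56.2 and 66.5 CPM (4.80 ± 0.22). Nrp1, a VEGF co-receptor, was not called in this comparison (-0.28 ± 0.27), and mesoderm-gated cells held 290 to 311 CPM of it. It was higher against all other cells (1.73 ± 0.16).

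Ligands ran the other way or were mixed. Of 7 tested, Tgfb1 and Vegfc were higher and Vegfa, Bmp4 and Angpt2 lower. Vegfa, the main ligand of Kdr, stood at 11.3, 13.9 and 6.49 CPM in the gate against 31.8, 41.5 and 43.6 CPM in the comparator (-1.77 ± 0.25), and at 71.2 to 107 CPM in the 51 mesoderm-gated cells. Tgfb1 stood at 119, 126 and 167 CPM in the gate against 19.9, 22.9 and 37.9 CPM (2.44 ± 0.24). Bmp4 was at 32.7, 38.9 and 48.7 CPM, and its call as lower (-0.54 ± 0.18) was lost without tagged sample 1, 2 or 3, at -0.51, -0.50 and -0.60. That of Angpt2 (5 UMIs in the gate; -2.35 ± 0.73) was lost without tagged sample 3, at -2.10. Against all other cells Bmp4 was higher (1.40 ± 0.21), so its direction depends on the comparator. The placental growth factor gene Pgf had 0 UMIs in the gate and 59 in the comparator.

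**Figure D2:**
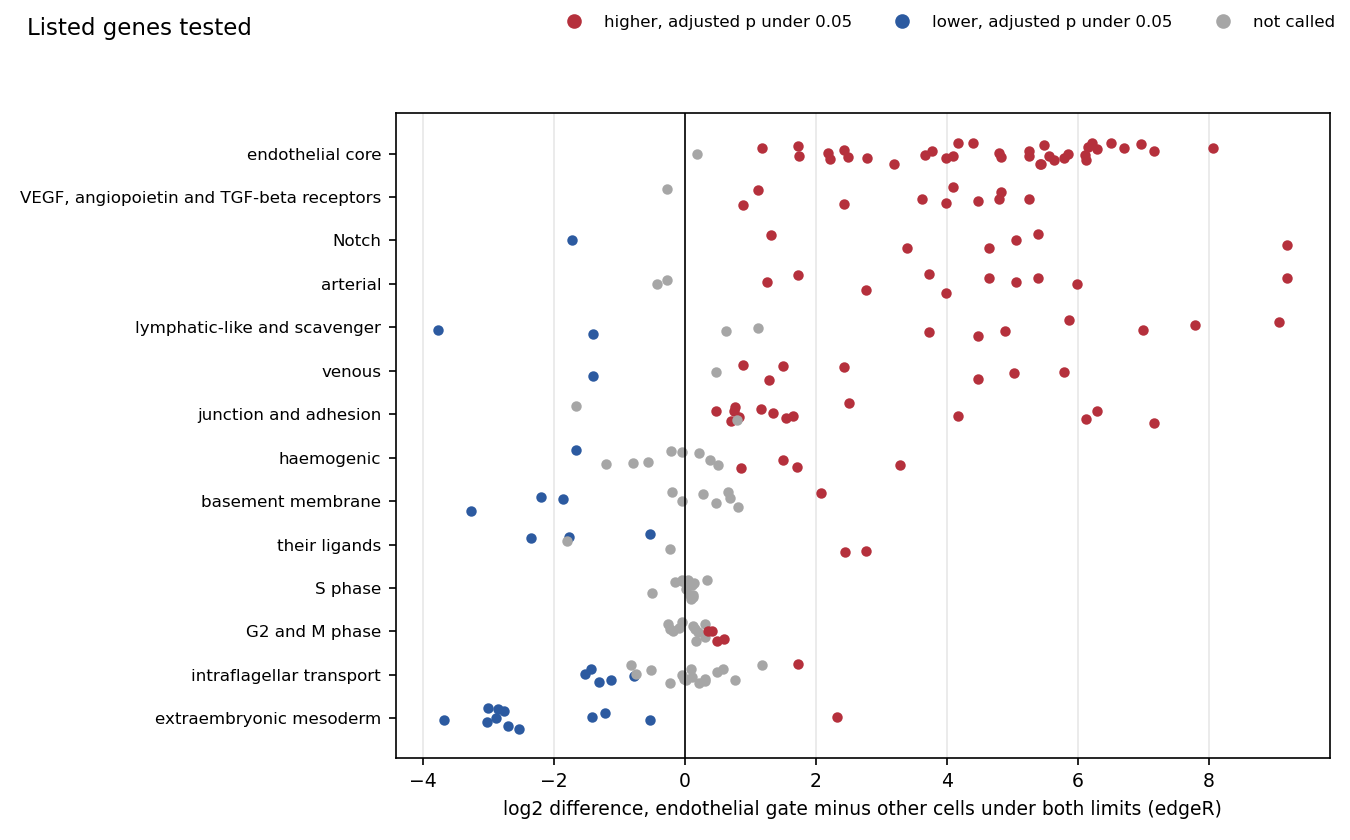
Log2 difference between the endothelial gate and the other cells under both limits, 1 point per tested gene of 14 lists, red where higher and blue where lower at an adjusted p under 0.05, grey where not called. The endothelial core, receptor, Notch and arterial lists lie mostly to the right (medians 5.25, 3.99, 4.64 and 3.86), cell cycle genes lie near 0, and 11 of 12 mesoderm markers lie to the left; for Dll4 and Gpihbp1 the comparator held 0 UMIs, so their fitted values are no bound.

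Arterial genes were present in the gate at moderate levels. Of 20 listed genes 12 were tested, 10 were higher and 0 lower (median 3.86), and 8 were too low to test. Notch1, the receptor at the head of the arterial programme, stood at 81.4, 86.1 and 77.9 CPM against 2.81 to 4.35 CPM (4.64 ± 0.20, adjusted p = 2.06e-07 in edgeR's quasi-likelihood test). Its arterial ligand Dll4 (chromosome 2, 119325784 to 119335962, plus strand, GRCm38) had 91 UMIs in the gate, at 17.2, 24.3 and 21.9 CPM. No UMI of it was found in the comparator, which makes it at least 108-fold higher. The gap junction gene Gja4 (connexin 37; chromosome 4, 127311421 to 127314039, minus strand) stood at 30.3, 31.2 and 18.7 CPM against 1.34 to 2.82 CPM (3.72 ± 0.33).

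The Notch target Hey1 stood at 19.6, 18.7 and 26.0 CPM (5.06 ± 0.35), and Mecom, a transcription factor of arterial and haemogenic endothelium, at 16.6, 29.2 and 18.7 CPM (5.99 ± 0.42). Efnb2, which encodes ephrin-B2, differed less, at 17.8, 25.7 and 30.0 CPM against 9.88 to 12.6 CPM (1.25 ± 0.24). Sox17, an arterial transcription factor that visceral endoderm also expresses, stood at 52.9, 44.4 and 41.4 CPM. Its difference (1.73 ± 0.48) was not called without tagged sample 1 (1.20) or without tagged sample 3 (1.59). Genes of mature arteries were scarce or absent. Gja5 (connexin 40) had 24 UMIs, 0.594, 8.33 and 8.92 CPM, against 1 UMI in the comparator, a pooled ratio of 85.8 with a 95% counting interval of 14 to 3529. Jag1 had 3 UMIs, and Bmx had 0 in all cells.

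In thinned cells Dll4 was found in 19.8% of the gate (17.0%, 23.8% and 18.7% by tagged sample) and Gja4 in 19.4% (23.8%, 19.1% and 15.6%). Both were under 0.4% in endoderm-limit and globin-limit cells. The shares depend on depth: unthinned they were 40.5% and 33.3%. Of 13 listed Notch genes 7 were tested, and 6 were too low to test. Of those tested 6 were higher and Notch2 was lower (-1.73 ± 0.52, not called without tagged sample 2, -1.04, or 3, -1.59). Dll4, with no UMI in the comparator, entered the test through its gate counts alone. Hes1 was its most abundant member at 130, 84.0 and 74.6 CPM (1.32 ± 0.20). Nrarp, a feedback inhibitor induced by Notch, stood at 19.0, 27.1 and 21.9 CPM (3.39 ± 0.44).

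Venous genes were also present together with the arterial ones. Of 10 listed genes 9 were tested, 7 were higher and 1 lower (median 1.50). Flt4, the receptor for VEGF-C, stood at 53.5, 54.2 and 47.9 CPM against 2.01 to 2.81 CPM (4.47 ± 0.20). Aplnr, the apelin receptor of veins, stood at 63.0, 44.4 and 42.2 CPM (1.50 ± 0.24), and mesoderm-gated cells held 31.0 to 48.5 CPM of it. Its ligand gene Apln stood at 48.7, 48.6 and 35.7 CPM against 0.601 to 1.84 CPM (5.03 ± 0.31), while endoderm-limit cells held 20.7 to 48.7 CPM. Emcn, a sialomucin of veins and capillaries, stood at 16.0, 30.6 and 40.6 CPM (5.79 ± 0.50).

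Nr2f2 (COUP-TFII) and Ephb4, a transcription factor and a receptor known for venous identity, had low levels in the gate. Nr2f2 had 36 UMIs in the gate, at 10.7, 7.64 and 5.68 CPM, against 14.6, 27.5 and 27.5 CPM in the comparator and 57.3 to 63.8 CPM in mesoderm-gated cells. It was the gene called lower (-1.40 ± 0.34), though not without tagged sample 2 (-1.21) or 3 (-1.09). Thinned, it was found in 6.14% of gate cells and in 13.2% of endoderm-limit cells. Ephb4 stood at 10.7, 10.4 and 6.49 CPM and at 7.60 to 8.30 CPM in endoderm-limit cells. Its call (1.28 ± 0.32) was lost without tagged sample 1 (1.09) or 2 (1.38). The call of Nrp2 as higher (0.89 ± 0.27) was lost without tagged sample 1 (0.45) or 2 (0.99). Vwf, a marker of mature endothelium, had 3 UMIs in the gate. Dab2, listed as venous, is an endocytic adaptor of visceral endoderm, at 1138 to 1348 CPM in endoderm-limit cells. It was lower in the gate against all other cells (-2.24 ± 0.21) and not called here (0.48 ± 0.18), but called higher with the tagged sample as a block (0.47, adjusted p = 0.0300 in edgeR's quasi-likelihood test) and without tagged sample 1 (0.67).

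Lyve1 had the highest level of the lymphatic-like and scavenger list in each tagged sample. Of 16 listed genes 11 were tested, 7 were higher and 2 lower (median 4.47). Lyve1 differed by 7.79 ± 0.52 (adjusted p = 3.1e-06 in edgeR's quasi-likelihood test). Stab2 (chromosome 10, 86841198 to 87008025, minus strand, GRCm38), a receptor that clears hyaluronan and other ligands, stood at 23.8, 148 and 85.2 CPM, against 2 UMIs in the whole comparator, a pooled ratio of 640 with a 95% counting interval of 176 to 5306. Mrc1, the macrophage mannose receptor, stood at 80.8, 136 and 120 CPM (6.99 ± 0.36), Stab1 at 38.6, 77.1 and 81.9 CPM (5.86 ± 0.39) and the transcription factor Maf at 202, 275 and 240 CPM (4.89 ± 0.19). All 5 were lowest in tagged sample 1.

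Maf was also a gene of the endoderm, at 138 to 148 CPM in endoderm-limit cells. Itga9, an integrin of lymphatic valves, stood at 14.3, 28.5 and 24.3 CPM (3.73 ± 0.36). The genes that define lymphatic endothelium were low. Prox1, the transcription factor that specifies it, had 22 UMIs, at 5.94, 3.47 and 5.68 CPM, and was not called in this comparison (1.11 ± 0.42). It was found in 4.48% of thinned gate cells, against 1.94% at the endoderm limit and 1.12% at the globin limit. Against all other cells Prox1 was higher (1.55 ± 0.42), but not without tagged sample 1 (1.15). Pdpn, the lymphatic surface protein podoplanin, had 12 UMIs and was lower (-3.77 ± 0.49), and Reln, a secreted glycoprotein, was lower too (-1.40 ± 0.24), though not with stricter endoderm and globin limits (-0.18). The chemokine gene Ccl21a and the lectin gene Cd209b had 0 UMIs in all cells.

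**Figure D3:**
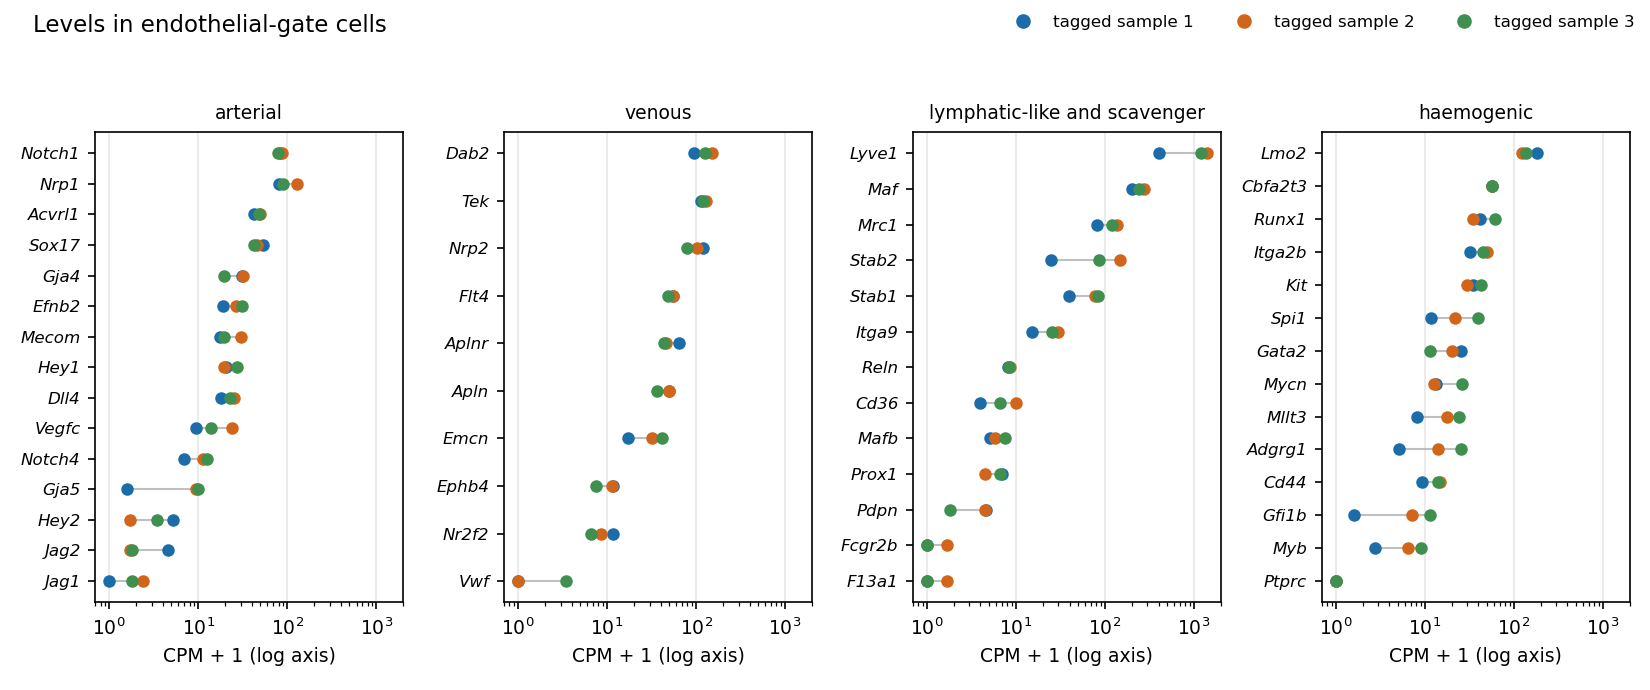
CPM of arterial, venous, lymphatic-like and haemogenic genes in the endothelial gate (CPM + 1 on a log axis), 1 point per tagged sample, with a grey line from the lowest to the highest. Lyve1 and Stab2 spread more widely than most genes at their level (406 to 1397 and 23.8 to 148 CPM), and Prox1, Pdpn, Nr2f2 and Jag1 stay near the bottom.

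Haemogenic genes were mixed. Of 17 listed genes 13 were tested, 4 were higher and 1 lower (median 0.21). Runx1 (chromosome 16, 92601466 to 92826149, minus strand, GRCm38), the factor needed for blood to form from endothelium, stood at 40.4, 34.0 and 60.8 CPM. The other cells held as much: 53.7, 38.9 and 54.0 CPM under both limits, 27.7 to 40.6 CPM at the endoderm limit and 42.3 to 63.8 CPM at the globin limit. Runx1 was not called in either comparison (-0.04 ± 0.22 and, against all other cells, 0.00 ± 0.19). Its thinned share of gate cells, 24.4%, was not above the 27.2% and 33.6% of endoderm-limit and globin-limit cells.

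Spi1 (PU.1; chromosome 2, 91082390 to 91115756, plus strand), a myeloid transcription factor, did set the gate apart. It stood at 10.7, 20.8 and 38.9 CPM against 1, 3.81 and 2.82 CPM (3.28 ± 0.53, adjusted p = 0.00115 in edgeR's quasi-likelihood test). It was found in 14.3% of thinned gate cells, against 0.115% at the endoderm limit and 0.448% at the globin limit. Kit, the stem cell factor receptor, stood at 33.9, 29.2 and 41.4 CPM (1.71 ± 0.26), and Itga2b (CD41), an integrin of early blood progenitors and megakaryocytes, at 31.5, 48.6 and 43.8 CPM (1.50 ± 0.25). Lmo2, a partner of Tal1, stood at 183, 124 and 136 CPM (0.85 ± 0.20). Myb was the gene called lower, at 1.78, 5.56 and 8.11 CPM (-1.67 ± 0.39).

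Markers of other cell types were read over their whole lists. Of 7 tested markers of blood progenitors, macrophages and megakaryocytes 3 were higher and 1 lower, beside 17.9% and 13.1% of all genes tested. The higher ones were Spi1, Itga2b and Coro1a, and Coro1a was not called without tagged sample 3 (1.72). Of the 12 listed, Ptprc, Gp1bb and Gp9 had 0 UMIs in the gate, where a count of 0 allows a UMI in up to 2.70% of gate cells. The list summed to 66.6, 115 and 169 CPM in the gate and to 32.5, 74.8 and 54.8 CPM in the comparator. Fcer1g, an adaptor of Fc receptors in myeloid cells, ran from 1.78 to 15.3 and 41.4 CPM across tagged samples, as Spi1 did. Its part in the Spi1 result was not tested.

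The 12 visceral endoderm markers summed to 479, 923 and 677 CPM in the gate, against 518 to 587 CPM in globin-limit cells and 30269 to 38652 CPM in endoderm-limit cells. The 3 of them that set the endoderm limit are part of these sums. Without those, the other 9 summed to 301, 569 and 415 CPM in the gate and to 412 to 503 CPM in the comparator. Of the 7 tested in the second comparison 0 were called by edgeR's quasi-likelihood test, 0 had an unadjusted p under 0.05 and DESeq2 called 0.

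Of the 11 erythroid markers 7 are the globins that set the globin limit, so their level in the gate is fixed in part by the rule. The 11 summed to 1637, 6249 and 2399 CPM in the gate, highest in tagged sample 2. The other 4 summed to 22.6, 94.4 and 28.4 CPM in the gate, to 89.4 to 162 CPM in the comparator and to 563 to 783 CPM in globin-limit cells. Of these 4, 2 were lower in the second comparison, the erythroid factor Klf1 (-2.35 ± 0.57) and the haem synthesis gene Alas2 (-1.73 ± 0.49). Without tagged sample 3 neither was called (-1.78 and -1.25), and Alas2 was not called without tagged sample 1 either (-1.23). With stricter endoderm and globin limits neither was called (-1.17 and -0.77), nor was Klf1 by DESeq2 (-2.37).

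Of the 12 extraembryonic mesoderm markers, 11 were lower and 1, Vim, was higher. Vim encodes vimentin, an intermediate filament protein of mesenchymal and endothelial cells alike, and stood at 1795, 1804 and 1984 CPM (2.32 ± 0.17). Foxf1, a mesoderm factor that is also expressed in endothelium, stood at 14.3, 23.6 and 31.6 CPM (-1.42 ± 0.31).

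The 8 trophoblast markers summed to 143, 145 and 116 CPM in the gate and to 1421, 1857 and 1561 CPM in the comparator. In mesoderm-gated cells they summed to 3323, 2837 and 2902 CPM, and Hand1 is also in the mesoderm list. Of the 5 tested 4 were lower and 0 higher. Krt18, a keratin gene that endoderm and mesoderm-gated cells also hold, stood at 49.3, 66.7 and 50.3 CPM (-3.61 ± 0.15), Krt8 differed by -3.61 ± 0.16 and Hand1 by -3.68 ± 0.29. Ascl2 was lower too (-2.71 ± 0.85), though not without tagged sample 1 (-2.59) or 2 (-2.27). The other 3, Prl3d1, Prl2c2 and Tpbpa, had 0 UMIs in the gate and in the comparator. The allantois genes Tbx4, Hoxa11 and Tbx5 had 0 UMIs in the gate, and their list summed to 0.217 to 3.21 CPM in the comparator.

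The 6 endocardium and heart markers summed to 98.6, 38.9 and 32.5 CPM in the gate, highest in tagged sample 1, and to 196, 348 and 93.6 CPM in the comparator. All 6 were tested, 2 were higher and 2 lower. The higher ones were Nfatc1, a transcription factor of endocardium, at 20.8, 16.7 and 13.8 CPM (2.10 ± 0.26), and the natriuretic peptide receptor Npr3, at 5.94, 13.9 and 6.49 CPM (2.97 ± 0.49). The lower ones were the heart muscle genes Tnnt2 (-3.59 ± 0.47) and Actc1 (-6.22 ± 1.66). Actc1 had 2 UMIs in the gate and was not called without tagged sample 2 (-4.55).

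Outside the lists, the naming rule gave, in order of their difference from the other cells under both limits, Gimap4, Gpr182, Cd109, Rgs7bp, Klhl4, Adgrl4, Oit3, Clec1b, Adgrf5 and Igf1. Gpr182, an atypical chemokine receptor of lymphatic and sinusoidal endothelium, stood at 106, 175 and 158 CPM against 0.867 to 1.40 CPM (7.10 ± 0.28). Igf1, a growth factor, stood at 166, 243 and 248 CPM (5.76 ± 0.21). Oit3, a gene of liver sinusoidal endothelium in the adult, stood at 80.2, 79.9 and 76.3 CPM (6.06 ± 0.21). Clec1b (CLEC-2), the platelet receptor for podoplanin, stood at 53.5, 41.0 and 51.1 CPM (5.89 ± 0.26), while Pdpn itself was low.

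Against all other cells the rule named Cd109, Adgrl4, Gpr182, Gngt2, Klhl4, Fgd5, Oit3, Igf1, Gimap4 and Fxyd5, of which 7 stand in both sets of 10. The 5 lower genes there were Creb3l3, Aqp11, Aqp3, Folr1 and Apoc3, each at 105 CPM or more in endoderm-limit cells. The 5 lower genes under both limits were Fst, Srgn, Lama1, Hoxc8 and Tdo2. Hoxc8 and Tdo2 were high in mesoderm-gated cells (153 to 273 and 265 to 329 CPM). Fst, Srgn and Lama1 came mainly from the comparator of tagged sample 2, with 243, 154 and 273 CPM against at most 36.4, 22.1 and 55.9 CPM in the other tagged samples. Fst and Srgn had 2 UMIs each in the gate, and the comparator's pooled levels were 203 and 125 times the gate's, with 95% counting intervals of 56.0 to 1676 and 34.4 to 1030. The call of Srgn was lost without tagged sample 2 (-4.94, adjusted p = 0.0589 in edgeR's quasi-likelihood test) or 3 (-7.70, adjusted p = 0.0891), and that of Lama1 (-5.39 ± 1.32) without tagged sample 3 (-5.53).

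The comparator of tagged sample 2 was also high for basement membrane genes. Of 11 genes tested, 1 was higher and 3 lower (median 0.28), against 7 higher and 2 lower in the comparison with all other cells. Col4a1, a collagen IV chain, stood at 390, 600 and 475 CPM in the gate and at 110, 1223 and 269 CPM in the comparator (-0.04 ± 0.65). Without tagged sample 2 its difference was 1.30 and was called (adjusted p = 0.0309 in edgeR's quasi-likelihood test). Sparc, a collagen-binding matrix protein, stood at 968, 1212 and 1232 CPM against 224, 1551 and 486 CPM (0.68 ± 0.52). It was called higher without tagged sample 2 (1.73) and with the tagged sample as a block (1.12, adjusted p = 0.0242 in the same test). Hspg2 (perlecan) was the higher gene, at 99.8, 111 and 103 CPM (2.08 ± 0.16). The laminin chains Lamb1 (-3.27 ± 0.69), Lamc1 (-2.20 ± 0.60) and Lama5 (-1.86 ± 0.41) were the lower ones, and Lamc1 was not called without tagged sample 3 (-2.51).

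Junction and adhesion genes were mostly higher, 14 of 16 tested with 0 lower (median 1.25), beside 17.9% and 13.1% of all genes tested. Against all other cells 12 of 16 were higher and 2 lower. Ocln lost its call as higher with DESeq2 (1.69), with library size scaling (1.57) and without tagged sample 1 (2.02), 2 (1.89) or 3 (1.21). Jam3 lost its call without tagged sample 2 (0.87) or 3 (0.81) and with stricter endoderm and globin limits (0.72). Itga6, a laminin receptor subunit, stood at 85.6, 140 and 122 CPM (2.50 ± 0.38), and the scaffold Tjp1 (ZO-1) at 256, 208 and 186 CPM (1.16 ± 0.12). Barrier vessel genes were not: 2 of 3 tested were lower, Slc2a1 (GLUT1; -1.87 ± 0.15) and the amino acid carrier Slc7a5 (-1.38 ± 0.32). Mfsd2a, the lipid carrier of the blood-brain barrier, had 1 UMI in the gate.

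Cell cycle genes had small median differences from the other cells under both limits. In that comparison edgeR's quasi-likelihood test called 0 of 15 S phase genes, 2 had an unadjusted p under 0.05 and DESeq2 called 0. Their median log2 difference was 0.05. Of 15 G2 and M phase genes 4 were higher and 0 lower (median 0.17), beside 17.9% and 13.1% of all genes tested. Top2a, a G2 and M phase gene, stood at 424, 412 and 365 CPM in the gate and at 375, 383 and 390 CPM in the comparator. Against all other cells 1 of 15 S phase genes was higher and 0 lower. There 6 of 15 G2 and M phase genes were higher and 2 lower, beside 22.8% and 23.8% of all genes tested.

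Intraflagellar transport genes, which build the cilium that the study is about, depended on the comparator. Against all other cells 10 of 23 were higher and 0 lower (median 0.23), beside 22.8% and 23.8% of all genes tested. Against the other cells under both limits 1 of 22 was higher and 5 lower (median -0.01), beside 17.9% and 13.1% of all genes tested. Ift122 was higher in both (2.34 ± 0.30 and 1.73 ± 0.34), at 9.51, 10.4 and 13 CPM in the gate against 4.02, 2.20 and 4.12 CPM under both limits. The lower genes were Ift74 (-1.13 ± 0.19), Ift43, Ift80, Ttc21b and Wdr35. Only the call of Ift74 held when each tagged sample was left out in turn. The differences of the other genes were then -0.69 to -0.89 for Ift43, -1.06 to -1.87 for Ift80, -1.44 and -1.70 for Ttc21b and -1.01 and -1.28 for Wdr35 where their calls were lost. DESeq2 lost the calls of Ift80 (-1.47), Ttc21b (-1.55) and Wdr35 (-1.35). The call of Ift80 was also lost with the tagged sample as a block (-1.41), at 5% mitochondrial UMIs (-1.41) and from 3 Cdh5 UMIs (-1.58). Ift88, the subunit mutated in many cilium studies, was not called in either (0.02 ± 0.22 and -0.05 ± 0.24).

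Within the gate, several genes of the lymphatic-like list varied together from cell to cell. These rank correlations of CPM per cell over 111 cells are a description. The cells share 3 tagged samples, and zeros depend on depth. Lyve1 ran with Stab2 (Spearman's rho 0.75, and 0.60, 0.59 and 0.75 within tagged samples 1, 2 and 3), with Mrc1 (0.65) and with Maf (0.61). After thinning (100 cells) the first was 0.54. Cells of tagged sample 1 had a median of 310 CPM of Lyve1 and 8 cells at 0, those of tagged samples 2 and 3 medians of 1706 and 857 CPM with 0 and 1 cells at 0. The range reached 1924, 4673 and 5231 CPM. Lyve1 correlated with a cell's total UMIs by -0.32, so shallower cells had more of it per UMI.

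When each tagged sample was split at its median Lyve1, 54 cells lay above and 57 at or below, with median depths of 32824 and 38319 UMIs, and 27 cells lay within 1.25 times the median. Of 8858 genes with 20 or more UMIs in the gate and outside its rule, 22.1% were higher in the Lyve1-high cells of all 3 tagged samples and 12.8% were lower in all 3. Of 10 other genes of the lymphatic-like list 5 were higher and 2 lower. Stab2 stood at 53.0, 235 and 142 CPM in the Lyve1-high cells and at 3.05, 96.1 and 30.2 CPM in the others. Mrc1 stood at 135, 209 and 189 CPM against 42.6, 92.8 and 54.1 CPM, and Stab1, Maf and Flt4 were the other higher genes. The lower ones were Reln, at 4.30, 0 and 3.31 CPM against 9.14, 12.2 and 11.1 CPM, and Prox1, at 2.87, 1.87 and 4.97 CPM against 8.12, 4.42 and 6.36 CPM. Of 37 core endothelial genes 18 were higher and 2 lower in all 3 tagged samples. The core, venous and receptor lists share genes such as Tek, so their counts are not separate results. In the Lyve1-high cells 6 of 9 venous genes were higher with 0 lower, and 8 of 11 receptors with 0 lower. Of 10 basement membrane genes 7 were higher and 1 lower in these cells. Cdh5 and Plvap, which chose the cells, were higher there as well (pooled 374 against 264 CPM and 388 against 213 CPM). The globin gene Hba-x was lower there, at 906, 1497 and 1180 CPM against 1030, 5571 and 1477 CPM, and the part of globin content and depth in these counts was not tested.

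Of 13 haemogenic genes 6 were lower in the Lyve1-high cells of all 3 tagged samples and 0 higher. Runx1 stood at 28.7, 26.2 and 13.2 CPM there and at 48.7, 38.7 and 107 CPM in the others, without overlap. Etv2, the factor that starts the endothelial and blood programme, had a pooled level of 9.25 against 19.9 CPM, and Tal1 of 35.9 against 58.8 CPM. Most arterial genes were mixed over the tagged samples. Of 13 with 20 or more UMIs 1 was higher, the receptor Acvrl1, and 3 were lower, Gja4, Gja5 and Hey1. Hey1 stood at 11.5, 16.8 and 9.93 CPM in the Lyve1-high cells and at 25.4, 19.9 and 41.4 CPM in the others, and Dll4 at 17.2, 29.9 and 29.8 CPM against 17.3, 21.0 and 14.3 CPM.

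**Figure D4:**
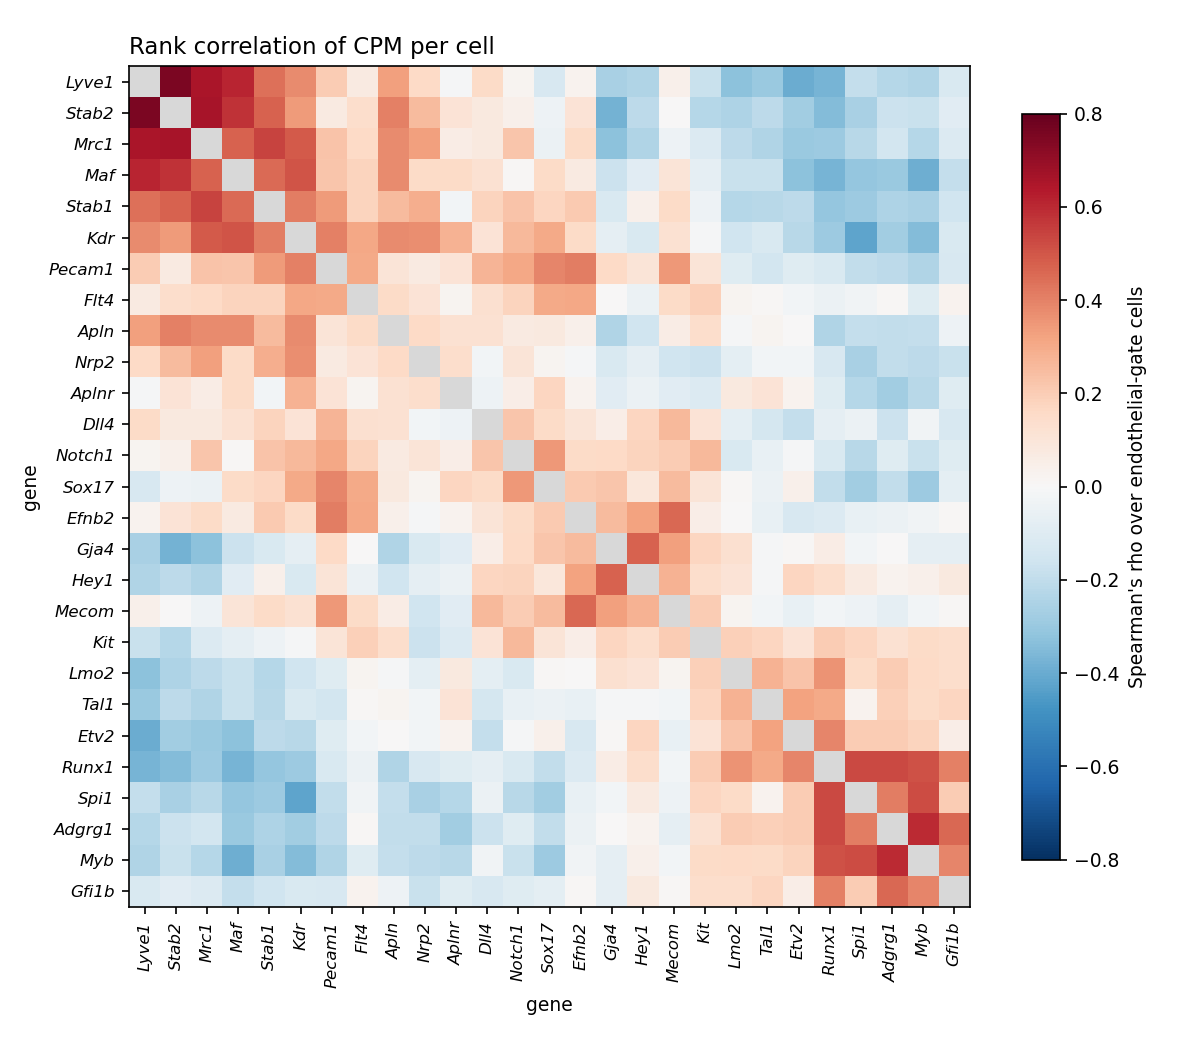
Spearman's rho of CPM per cell between pairs of 27 genes over the 111 endothelial-gate cells, red where positive and blue where negative, with the diagonal in grey. The genes stand in a chosen order with no clustering, and the values are from unthinned cells. Lyve1, Stab2, Mrc1, Maf, Stab1 and Kdr were placed at the upper left (Lyve1 with Stab2 0.75). Runx1, Spi1, Adgrg1, Myb and Gfi1b were placed at the lower right (Runx1 with Spi1 0.53). Pairs between these sets are mostly negative, and both quoted pairs were weaker after thinning.

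Runx1 varied together with several haemogenic genes in unthinned cells. Over the 111 cells it ran with Spi1 (0.53), Adgrg1 (GPR56, a surface receptor of haemogenic cells; 0.53), Myb (0.51) and Gfi1b (0.40), and against Lyve1 (-0.37), Stab2 (-0.35) and Kdr (-0.29). Within tagged sample 1 the pairs with Adgrg1 and Gfi1b were near 0 (0.07 and 0.02). After thinning, Runx1 with Spi1 was 0.36 and Runx1 with Adgrg1 0.18. Cells with a Runx1 UMI were 21, 12 and 13 by tagged sample, 46 in all, with a median of 46336 UMIs against 27847 in the 65 without, so depth enters this split. CPM of several of its genes also ran with a cell's total UMIs (rho 0.41 for Lmo2, 0.35 for Runx1, 0.33 for Tal1, 0.29 for Gfi1b and 0.22 for Spi1). Hba-x was higher with Runx1, at 1015, 4980 and 1385 CPM against 912, 3132 and 1296 CPM. The part of depth and globin content in the levels of this split was not tested.

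Spi1 stood at 12.9, 38.8 and 91.9 CPM in cells with a Runx1 UMI and at 6.69, 2.78 and 4.04 CPM without. All 21 Myb UMIs of the gate were in cells with Runx1. Over all genes with 20 or more UMIs, 13.4% were higher with Runx1 in all 3 tagged samples and 21.3% lower. Of 12 other haemogenic genes with 20 or more UMIs, 6 were higher with Runx1 in all 3 tagged samples and 0 lower, Lmo2 among them (223, 140 and 208 against 110, 108 and 88.8 CPM). Of 37 core endothelial genes 17 were lower and 3 higher. Emcn stood at 7.37, 20.8 and 12.3 CPM with Runx1 and at 31.8, 40.3 and 59.2 CPM without. Flt1 was lower with Runx1 in all 3 tagged samples (pooled 216 against 287 CPM), and so was Tek (90.6 against 151 CPM). Kdr and Pecam1 were mixed. Ptprc had no UMI in either set, and Pf4, a platelet chemokine gene, had 40 UMIs with Runx1 and 14 without. Fcer1g stood at 0.921, 18.0 and 100 CPM with Runx1 and at 3.35, 12.5 and 2.69 CPM without, so most of it lay in Runx1 cells of tagged sample 3.

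Gja4 marked the arterial side. It ran with Hey1 (0.47), Gja5 (0.34) and Mecom (0.33), and against Stab2 (-0.38) and Mrc1 (-0.33). After thinning, the pair with Hey1 was 0.26 and that with Stab2 -0.15. Cells with a Gja4 UMI were 18, 9 and 10 by tagged sample, 37 in all, of which 14 had a single UMI. Their median depth was 36886 UMIs against 35930 in the other 74 cells. Over all genes with 20 or more UMIs, 11.9% were higher with Gja4 in all 3 tagged samples and 14.6% lower. Of 12 other arterial genes 9 were higher and 0 lower. Hba-x was lower with Gja4, at 862, 2429 and 1155 CPM against 1107, 4559 and 1385 CPM, and its part in these counts was not tested. Efnb2 stood at 23.8, 64.8 and 69.8 CPM against 11.3, 13.6 and 18.0 CPM, and Hey1 at 26.0, 47.2 and 90.7 CPM against 12.5, 9.99 and 6.34 CPM. Mecom stood at 21.5, 79.6 and 52.3 CPM against 11.3, 13.6 and 8.46 CPM.

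Of 9 venous genes 3 were lower with Gja4 and 0 higher, and of 11 lymphatic-like genes 5 were lower and 0 higher. Apln stood at 19.2, 5.90 and 17.4 CPM against 81.4, 61.8 and 41.2 CPM. Mrc1 stood at 56.6, 85.5 and 97.7 CPM against 108, 152 and 127 CPM. Dll4 did not follow Gja4 closely. Their rho was 0.05, and the strongest pair of Dll4 among the 31 genes read was with Nrp1 (0.35).

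**Figure D5:**
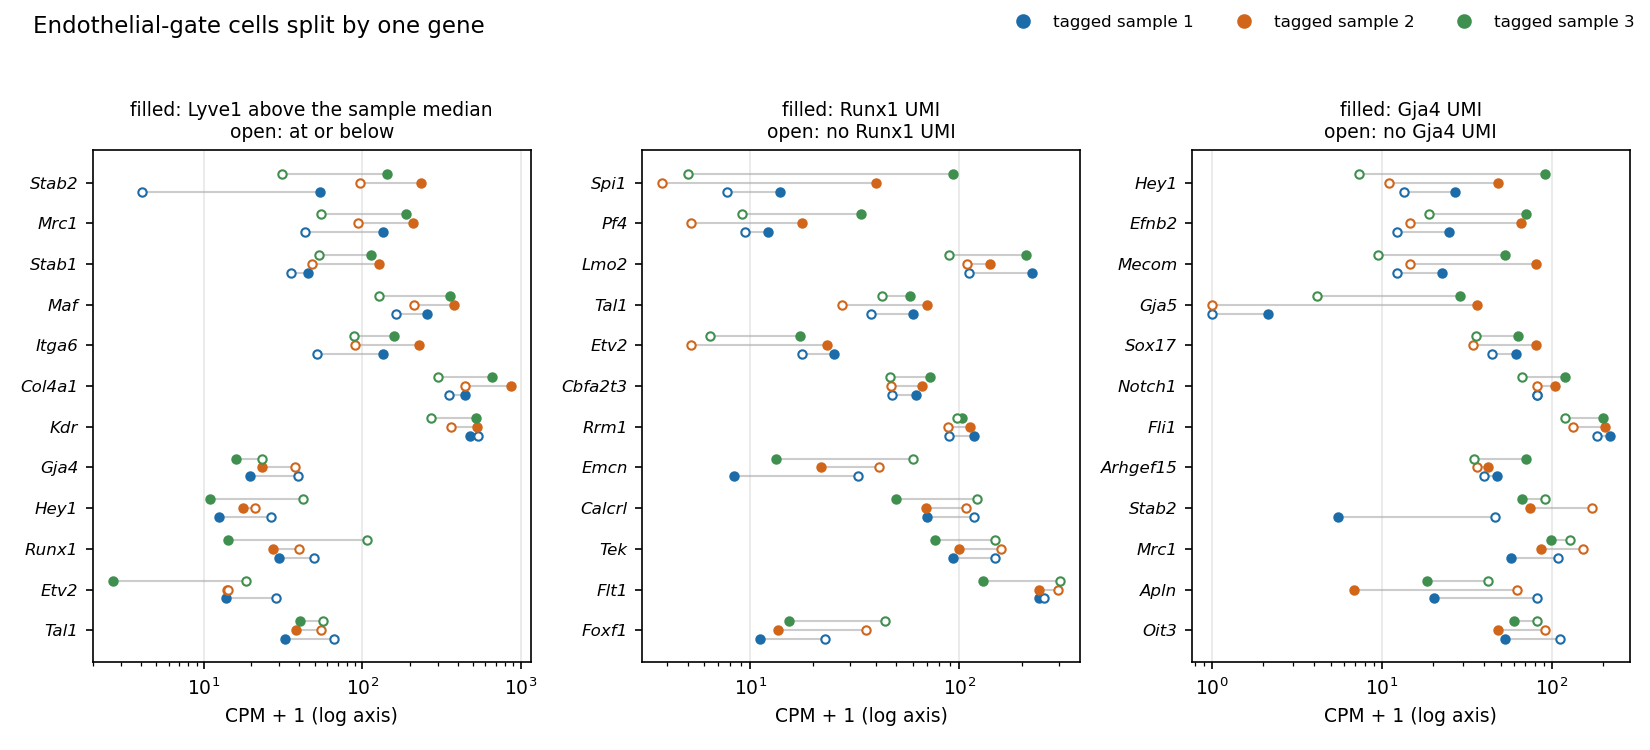
CPM + 1 (log axis) in endothelial-gate cells split by Lyve1 at the tagged sample's median, by a Runx1 UMI and by a Gja4 UMI; filled points are cells above the median or with a UMI, open points the others, and a line joins the sets of 1 tagged sample. Stab2 and Mrc1 lie to the right in Lyve1-high cells and to the left in Gja4 cells, and Spi1 lies to the right in Runx1 cells (12.9 to 91.9 against 2.78 to 6.69 CPM).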

How the data were processed

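Deposited files were raw UMI counts per gene and cell, not normalized, in 1 matrix for each of 3 tagged samples. Per the file headers they come from Cell Ranger, release 6.1.2. The submitters' processing notes name the builds GRCm38 and mm10. Aligner settings, annotation and the assignment of cells to tags: not given in the sources used here. Gene positions come from GENCODE M21 (GRCm38), which matched 30900 of 30970 gene identifiers.

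Of 1817 deposited cells 77 failed the limits on genes or mitochondrial UMIs. Counts of each tagged sample's cells were summed by group and compared in a fit of those 2 groups only, with edgeR 4.0.16 on R 4.3.3 (quasi-likelihood test by glmQLFit and glmQLFTest, two-sided, after TMM scaling and filterByExpr, with Benjamini-Hochberg adjustment over all genes tested). The 13 gate genes got no test. The comparison groups were all other passing cells, and those under the gate's endoderm and globin limits. Mesoderm-gated cells, 51 of the latter, had no Cdh5 and at least 0.04% of Pdgfra, Postn and Col1a1. Blood-gated cells numbered 2 and were not used. Gate sums per tagged sample held 1232634 to 1682737 UMIs, and precision is limited by 3 tagged samples and, for low genes, by counts.

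Both sums of a comparison hold cells of 1 tagged sample, which pairs them by source. Their deviations from the group means correlated across genes by 0.23, 0.08 and 0.07 against all other cells, and by 0.22, 0.07 and 0.07 in the second comparison, where genes are not independent replicates. The fit with this block is an alternative.

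The members and the gene lists were chosen with earlier results of these data known, and some genes stand in several lists. All genes of the lists may be named. Besides them, each comparison names the 10 higher and 5 lower genes with the largest log2 differences among called genes at 50 or more CPM in the higher group and the same direction in all 3 tagged samples, leaving out listed, mitochondrial, ribosomal and unnamed genes. Doublets were called with Scrublet in scanpy 1.11.5. A cell counted as Xist-bearing from 4 Xist UMIs upward, and as Y-bearing from 2 Y-linked UMIs upward, if it had no more than 1 UMI of the other kind. DESeq2 1.42.0, other scalings, filters, gate limits and leaving out each tagged sample were alternatives.

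The fit was tested on simulated data with 200 changed genes. Against all other cells (11584 genes run) it recovered 46.0% of genes changed by a log2 of 1 and 99.0% of those changed by 2, with 3 false calls. In the second comparison (10059 genes run) the shares were 53.0% and 99.0%, with 8 false calls. The simulated sums were independent and shared a pooled profile, with the same fixed spread for every gene. Changed genes were drawn only from those above a minimum level. The data hold far more called genes, lower genes and, for some genes, uneven spread, so these shares do not carry over to the tests above.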

Additional observations from a re-analysis of the deposited data

How the results depend on the processing

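The number of genes called against all other cells (5444) was 3453 when all sums were thinned to the smallest. Without 1 tagged sample it ran from 3982 to 4534, and in the second comparison (3091) from 1891 to 2683. With the tagged sample as a replicate block the counts were 5630 and 3392; Ift80 lost its call, Dab2 and Sparc gained one, and no other call of a named gene changed. Among 57 genes read in the first comparison and 109 in the second, DESeq2 lost the call of 1 and 6, and library size scaling of 2 and 2. Leaving out a tagged sample lost 3 to 4 and 12 to 20.

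Differences that changed sign were those of genes near 0. Ift88 against all other cells was -0.01 with DESeq2, -0.06 with no low-count filter, -0.02 without doublet calls, -0.01 at 5% mitochondrial UMIs, -0.03 from 3 Cdh5 UMIs and from -0.14 to 0.12 without 1 tagged sample. In the second comparison it was 0.14 in thinned sums and from -0.22 to 0.07 without 1 tagged sample. Runx1 against all other cells was -0.01 with the replicate block, -0.02 with DESeq2, -0.08 with no low-count filter, -0.05 with stricter limits and -0.25 without tagged sample 3. In the second comparison it was 0.14 from 3 Cdh5 UMIs, 0.54 with stricter limits and from -0.23 to 0.11 without 1 tagged sample. Col4a1 in the second comparison was 0.61 with the replicate block, 0.13 without doublet calls, 0.03 from 3 Cdh5 UMIs, and ran from -0.38 to 1.30 without 1 tagged sample, the latter without tagged sample 2. The causes were not tested.

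The mean share of gate cells with a UMI rose with depth, from 19.5% to 28.7% at 20000 UMIs and 33.8% unthinned for Gja4, from 19.8% to 27.8% and 40.8% for Dll4, from 24.3% to 36.4% and 41.9% for Runx1, and from 14.1% to 23.0% and 29.7% for Spi1. The gate's mean share of passing cells (6.55%) ran from 5.91% to 6.71% over other limits. Genes with few UMIs in both groups were not tested.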

Other observations

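Cell cycle genes were mostly mixed over the tagged samples in the sets within the gate, given here as a description of the sums with no test. Of 15 G2 and M phase genes 6 were higher in the Lyve1-high cells of all 3 tagged samples and 0 lower, beside 22.1% and 12.8% of all genes. Mki67 was one of them, at 257, 249 and 257 CPM against 208, 230 and 191 CPM. With Gja4 4 of the 15 were higher and 0 lower, beside 11.9% and 14.6% of all genes. These were Top2a (454, 439 and 457 CPM against 391, 404 and 337 CPM), Cenpf, Bub1 and Nusap1, none of which was among the 6. With Runx1 0 were higher and 1 was lower. Of 15 S phase genes 1 was higher and 0 lower in Lyve1-high cells, 1 higher and 3 lower with Gja4, and 2 higher and 4 lower with Runx1.

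The keratin genes Krt8 and Krt18 were unevenly spread over the gate. Krt18 stood at 25.8, 37.4 and 36.8 CPM in cells with a Runx1 UMI and at 92.1, 96.0 and 59.2 CPM in cells without, and at 33.9, 20.6 and 31.4 CPM in cells with a Gja4 UMI against 66.4, 80.8 and 56.0 CPM. In endoderm-limit and mesoderm-gated cells it stood at 480 to 732 and 1172 to 1334 CPM. The mesoderm factor Hand1 stood at 26.1, 17.4 and 5.68 CPM in the gate by tagged sample, and at 4.52, 5.90 and 0 CPM in its Gja4 cells against 50.1, 20.9 and 7.40 CPM in the others.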
